A study of Drosophila melanogaster with 9 samples.

Results

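The meiotic region of the wild-type *Drosophila melanogaster* testis was compared with the mitotic region across 18769 probe sets, to ask which cellular functions rise and which fall as germ cells enter the spermatocyte programme. The comparison uses 6 of the 9 samples of the series, the 3 labelled as male meiotic cells and the 3 labelled as male mitotic cells, and each sample is 1 Affymetrix *Drosophila* Genome 2.0 array. All groups were virgin males of the wild-type TEMPE T strain, aged 6 to 10 days, with no gene manipulated and no treatment, and each biological replicate pooled the same region of 250 to 500 testes. The mitotic samples were detached apical tips, which hold the stem cell niche (the hub), stem cells, spermatogonia and the cyst cells around them together with the muscular sheath. The meiotic samples were cells pressed out of the middle of the testis after the tip and the distal end had been cut away, so that spermatocytes left the sheath behind. According to the paper, the apical samples also held primary spermatocyte cysts at reduced levels. The middle samples held primary and secondary spermatocytes and, at reduced levels, early spermatids. Each group is thus a region enriched for a phase and not a pure cell type. In such bulk samples, fewer cells of a type and less RNA per cell cannot be told apart.

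In the fly testis, a spermatogonium divides with incomplete cytokinesis into a cyst of joined cells, which replicate their DNA a last time and become primary spermatocytes. Spermatocytes then grow for days while they transcribe the genes that meiosis and the later building of the sperm require, because transcription is low once meiosis has begun. A testis form of the TFIID complex (the testis TAFs) and the testis meiotic arrest complex are known to switch on much of this programme. Male flies also pair their chromosomes without recombination, and many general proteins have a second, testis-specific copy that arose by duplication or retroposition.

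Replicates were close to each other. Across all probe sets, Pearson's r ranged from 0.9975 to 0.9979 between the mitotic arrays, from 0.9973 to 0.9983 between the meiotic arrays and from 0.9392 to 0.9578 between arrays of different regions, as a description over probe sets that share the arrays. A level below is the deposited log2 intensity, and a change is the meiotic mean minus the mitotic mean on that log2 scale, so that 1 is a 2-fold rise. Levels are compared within a gene and never between genes. A gene is called higher or lower where limma's adjusted p (Benjamini-Hochberg over 18769 probe sets, 9 arrays in 1 fit) was under 0.05, and each gene is represented by its brightest probe set.

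The regions differed over a large part of the transcriptome, and falls reached further than rises. Of the probe sets, 4566 (24.3%) were higher and 4943 (26.3%) lower in the meiotic region. Rises made up 48.0% of these calls, against 56.7% after the arrays had been centred. Of the 11982 named genes, 3537 (29.5%) were higher and 3991 (33.3%) lower, with a median change of 0.04. Calls were more frequent among bright genes, with 1772 (42.4%) higher and 1682 (40.2%) lower of the 4182 genes whose mean over the 6 arrays was 9 or more. The arrays of the 2 regions did not overlap for 12110 probe sets (64.5%), which is the background for each statement below that arrays did not overlap. At 2-fold or more, 1646 probe sets (8.77%) were higher and 1887 (10.1%) lower. At 4-fold or more, 73 probe sets were higher and 281 lower. With 3 arrays against 3, an exact test of a single gene cannot give a p under 0.1, so calls rest on the fit across all genes.

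The 12 largest falls among named probe sets began with *CG33281*, *CG16898*, *Phs* and *lola*, followed by *scrib*, a cell polarity scaffold. For 3 of these 12 the probe set is not the brightest of its gene, and the brightest fell by less: by 2.69 rather than 4.15 for *CG33281*, by 1.02 rather than 3.45 for *lola* and by 1.06 rather than 3.38 for *scrib*. *nanos*, a translational repressor that maintains germline stem cells, read 9.32, 9.54 and 9.40 in the mitotic arrays and 6.13, 6.26 and 6.26 in the meiotic arrays, a fall of 9.21-fold (adjusted p = 1.3e-09). *E(spl)m3-HLH*, a Notch target, read 7.15, 7.98 and 7.44 against 4.2, 4.17 and 4.31. *jumu*, a forkhead transcription factor, read 7.0, 7.11 and 6.82 against 3.68, 3.75 and 3.84. All 3 genes were high in each mitotic array and low in each meiotic array, with no overlap, which the rule for naming the 12 required. The chromatin proteins *woc* and *bon* fell by 3.24 and 3.22. *Nxt1*, a partner in mRNA export, fell by 3.17, and *metro*, a membrane scaffold protein, fell by 3.19.

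The 12 largest rises were mostly genes known only by a number. *CG32301* read 6.10, 5.98 and 6.14 in the mitotic arrays and 8.72, 8.29 and 8.41 in the meiotic arrays, a rise of 5.29-fold (adjusted p = 7.1e-09). *Gr32a*, a gustatory receptor of sensory neurons, read 6.54, 6.51 and 6.64 against 9.03, 8.78 and 8.79. *lobo*, which is needed for male fertility, read 8.68, 8.56 and 8.52 against 10.98, 10.76 and 10.78. Each meiotic array lay above each mitotic array in all of them, which the rule for naming the 12 required. *CG12985*, *CG14071*, *CG30485*, *CG14106* and *CG14006* rose by 2.22 to 2.29. The Y-linked *ORY* was the second largest rise, after the noncoding RNA *lncRNA:CR40053*.

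The genes for making ribosomes and protein fell almost without exception. Of 36 cytosolic ribosomal protein genes, 34 were lower, with a median change of -1.34. The 2 that rose, *RpS28a* (1.59) and *RpS28-like* (1.5), are copies of *RpS28b*, which fell by 1.22. *RpL3*, a core protein of the large subunit, read 12.74, 12.80 and 13.03 in the mitotic arrays and 10.75, 10.78 and 11.10 in the meiotic arrays, a fall of 3.95-fold (SE 0.12 on the log2 scale, adjusted p = 1.8e-08). The 3 meiotic arrays all lay far below the 3 mitotic ones. *RpS29* was measured by 3 probe sets that disagree: the brightest fell by 0.73 and another by 1.15, whereas the third, which is dim, rose by 1.72.

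Nucleolar genes, which make and assemble rRNA into ribosomes, fell with them. Of 43 ribosome biogenesis genes, 36 were lower and 2 higher, with a median of -0.98. *Nopp140*, a nucleolar scaffold, read 10.49, 10.85 and 10.67 in mitosis and 7.56, 8.21 and 8.39 in meiosis, and *pths*, a nucleolar helicase, read 10.44, 10.44 and 10.34 against 8.10, 8.07 and 8.10. Both were lower in each meiotic array. *NHP2*, a protein of the particles that modify rRNA, fell by 2.19. *Ns2* (0.35) and *Rrp6* (0.47) were the members that rose.

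Translation itself showed the same direction. None of 33 listed initiation and elongation factors rose and 30 fell (median -0.84). Among them were *eIF3d1* (-1.99) and *eIF4G1* (-1.97) of initiation and *eEF1gamma* (-1.64) of elongation. The list leaves out 2 testis copies, *eIF4E3*, which rose (0.24, but -0.42 after cyclic loess), and *eIF4G2*, which was not called (0.06). Of 30 aminoacyl-tRNA synthetases, which charge tRNAs, 27 fell (median -0.99), led by *IleRS* (-1.89) and *AlaRS* (-1.73). The 2 that rose, *CysRS-m* (1.04) and *TrpRS-m* (0.50), are mitochondrial enzymes. Of 71 mitochondrial ribosomal proteins, 67 fell and none rose, with a median of -0.77 and a lowest change of -1.5 for *mRpL9*. All 8 measured subunits of the CCT chaperonin, which folds tubulin and actin, fell by 1.07 to 1.51.

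RNA processing and the general transcription machinery were lower as well. Of 34 spliceosome genes, 30 fell and none rose (median -0.90). *Sf3b3*, a subunit of the U2 particle, read 11.01, 11.11 and 10.97 in mitosis against 8.12, 8.14 and 8.52 in meiosis, a fall of 6.8-fold (adjusted p = 2e-09) without overlap of the arrays. *SmB*, a core Sm protein, fell by 2.36, and *Prp8*, at the centre of the spliceosome, by 2.11. Of 16 general transcription factors 13 fell, of 12 general TAFs 9 fell, and of 26 Mediator genes 19 fell and 1 rose. Their medians were -0.89, -0.81 and -0.60. *Xpd*, a helicase of TFIIH, fell by 1.36, *Taf10* by 1.56 and *Tbp*, the TATA-binding protein, by 1.17.

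Chromatin regulators gave some of the deepest falls. Of 16 Polycomb group genes, which keep genes silent, 15 fell (median -1.08), and of 19 trithorax and SWI/SNF genes, which oppose them, 15 fell and none rose (median -0.74). *kis*, a chromatin remodeller, read 9.2, 9.37 and 8.93 in mitosis and 6.13, 6.28 and 6.52 in meiosis. *osa*, a subunit of the Brahma remodeller, read 9.52, 9.74 and 9.45 against 6.60, 6.55 and 7.10. In both genes the regions were apart on every array, with folds of 7.24 and 7.04. *Asx* (-2.23) and *sxc* (-2.02) led the Polycomb group. Among histone variants and chaperones 7 of 11 fell, with *Nap1*, a histone chaperone, at -2.71 and *asf1*, another, at -1.55. All 6 dosage compensation genes fell, with a median of -0.69, but *mof* was not called without mitotic replicate 3 (-0.26), and *mof* and *msl-3* were not called after cyclic loess (-0.05 and -0.21).

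Genes of the early germline fell. Of 28 genes of the piRNA pathway, which silences transposons, 23 were lower and 3 higher (median -0.63). *piwi*, a nuclear effector of the pathway, read 8.70, 9.09 and 8.70 in mitosis and 5.75, 6.07 and 5.95 in meiosis, and *qin*, a germ granule protein, read 9.29, 9.45 and 9.21 against 5.88, 6.21 and 6.52. *shu*, a co-chaperone of piRNA loading, read 9.97, 10.38 and 10.34 against 6.83, 7.22 and 7.42. No meiotic array reached a mitotic one, and the folds were 7.48, 8.65 and 8.42. Of 19 RNA regulators of spermatogonia 12 fell and 3 rose. The translational regulator *orb* fell by 3.0, whereas its paralog *orb2* rose by 1.07.

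Cell cycle genes of S phase and of the spindle mostly fell. Of 36 genes of the DNA replication machinery 29 fell and 5 rose (median -0.89), with *RfC4* (-2.13) and *RfC38* (-1.83), subunits of the clamp loader, lowest. The rises reached 0.93, in *PolE2*, a subunit of DNA polymerase epsilon, and *Cdc7*, a kinase that fires origins. *CycE*, the cyclin that drives S phase, read 7.27, 7.70 and 7.17 in mitosis and 4.44, 4.64 and 4.65 in meiosis, a fall of 6.97-fold (adjusted p = 5.4e-09). *Cks30A*, a small subunit of cyclin-dependent kinases, read 9.59, 9.87 and 9.74 against 10.23, 10.52 and 10.44. *CycE* was thus high and *Cks30A* low in all 3 mitotic arrays. Among 21 kinetochore and spindle checkpoint genes 14 fell and none rose, and 9 fell after cyclic loess.

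Genes of the meiotic divisions rose or passed no test, with 1 exception. Of 13 genes of entry into and exit from the divisions 7 (53.8%) rose and 1 fell (median 0.39). The list was bright, with a median intensity of 10.03, and 42.4% of genes with a mean intensity of 9 or more rose. *fzr2*, an activator of the anaphase-promoting complex, read 9.36, 9.26 and 9.35 in mitosis against 10.88, 10.66 and 10.67 in meiosis. *gwl*, the Greatwall kinase of M phase, read 8.69, 8.52 and 8.69 against 9.58, 9.61 and 9.50. Each meiotic array exceeded the mitotic ones in both. *bol*, an RNA-binding protein needed for meiotic entry, rose by 1.02. *tws*, a regulatory subunit of a protein phosphatase, fell by 2.41. *twe*, the meiotic Cdc25 phosphatase, and *CycB* passed no test (0.20 and 0.05).

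Chromosome cohesion moved both ways. Of 17 genes of male pairing and cohesion 9 fell and 4 rose. The cohesin subunits *SMC3* (-1.26), *SMC1* (-0.97), *SA1* (-1.09) and *SA2* (-1.11) fell, as did *tef*, which pairs autosomes in males (-1.36), and *Sse*, the separase (-1.52). *mei-S332*, the fly shugoshin, which protects cohesion at centromeres through the first meiotic division, read 8.79, 8.80 and 8.95 in mitosis and 10.18, 9.98 and 9.96 in meiosis. It was higher in every meiotic array by a fold of 2.29 (adjusted p = 7.9e-08). *pim*, the securin, rose by 0.61. Of 19 genes of female recombination 9 (47.4%) fell and 4 (21.1%) rose, against 33.3% and 29.5% of all genes.

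Most genes of the arrest complex and the testis TAFs, which switch on the spermatocyte programme, were not higher in the meiotic region. Of 16 genes of the testis meiotic arrest complex and its partners 10 fell and 2 rose (median -0.42), and of 4 testis TAFs *nht* (-0.53) and *can* (-0.36) fell while *mia* (-0.17) and *sa* (0.11) passed no test. *aly* fell by 0.84, *comr* by 0.63 and *tomb* by 0.57, whereas *topi* rose by 0.42 and *vis* by 0.31. Of the 3 testis bromodomain genes, which act with the testis TAFs, *tbrd-2* rose by 0.30, and *tbrd-1* (0.18) and *tbrd-3* (-0.23) were not called. The list of 16 also holds *Nxt1*, which fell by 3.17, and *Caf1-55*, counted under somatic MuvB as well, which fell by 1.10. Mean intensities over the 16 genes, with these 2 included, ran from 10.33 to 10.38 in the mitotic arrays and from 9.80 to 9.84 in the meiotic arrays. They are thus not a mean of the complex alone.

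**Figure D1:**
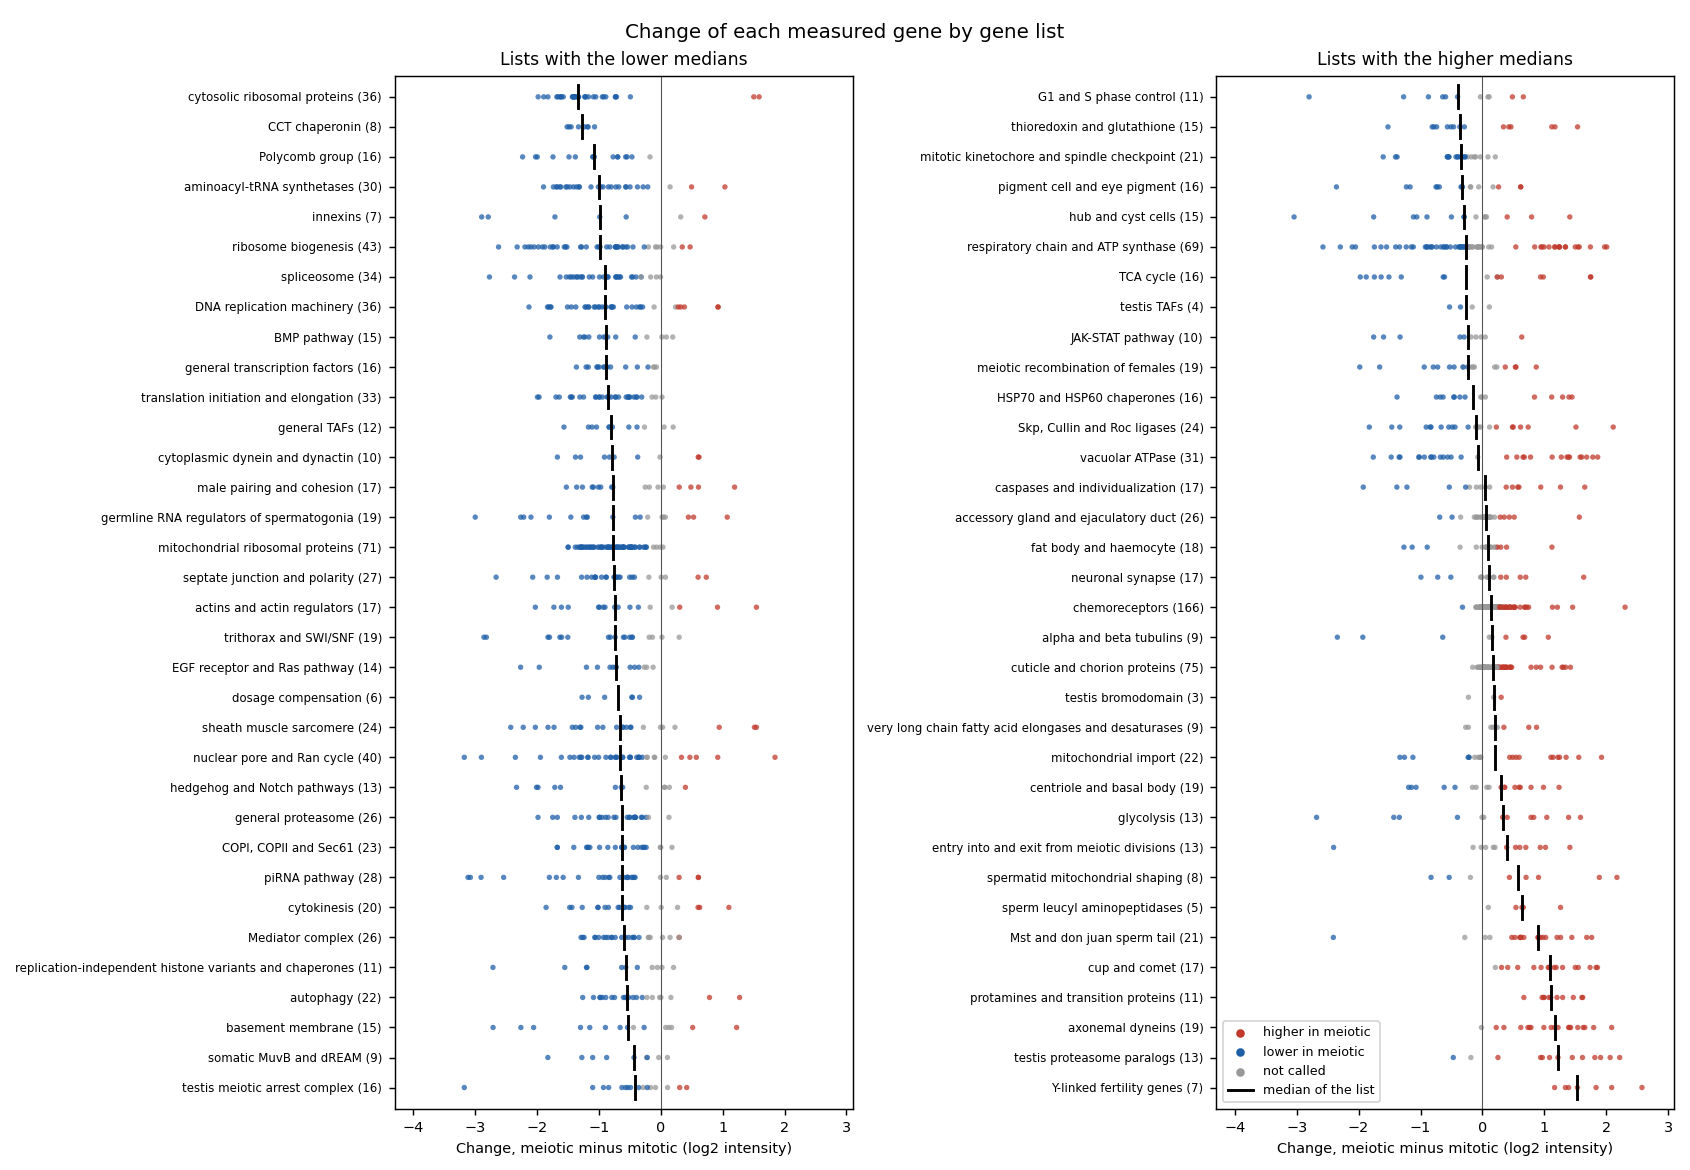
Change of each measured gene, meiotic minus mitotic on the log2 intensity scale, in the 68 gene lists (number of measured genes in parentheses) ordered by their median, which is the black bar. Red points are genes higher, blue points lower and grey points not called in the meiotic region. Cytosolic ribosomal proteins stand at the low end (median -1.34) and the 7 Y-linked genes at the high end (1.53). In the vacuolar ATPase list 15 genes were called higher and 15 lower.

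Genes of the sperm tail and of sperm chromatin rose nearly throughout. Of 19 axonemal dynein genes, which power the tail, 18 rose and none fell (median 1.17). *kl-3*, a Y-linked dynein heavy chain, read 4.87, 4.60 and 4.79 in mitosis and 6.84, 7.08 and 6.61 in meiosis, and the autosomal *Dnah3* read 7.57, 7.16 and 7.75 against 9.18, 9.57 and 9.12. The 3 arrays of each region stayed apart in both genes. *Dhc36C* rose by 1.63, and *Dhc93AB* was not called (-0.02).

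All 7 measured genes of the Y-linked list rose, by 1.17 to 2.58. *ORY*, a coiled-coil protein of the Y, read 4.82, 4.92 and 5.02 in mitosis and 7.74, 7.52 and 7.22 in meiosis, a rise of 5.96-fold (adjusted p = 3.2e-08). *Ppr-Y* read 5.24, 5.40 and 4.90 against 7.12, 7.35 and 6.57, and the phosphatase gene *Pp1-Y2* read 7.76, 7.57 and 7.80 against 9.34, 9.25 and 9.14. Every meiotic array was above every mitotic array. The mean intensity over the 7 genes ran from 5.84 to 5.95 in mitosis and from 7.43 to 7.70 in meiosis. Some of these genes were dim in the mitotic arrays, where an array understates folds.

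All 11 protamine and transition protein genes, which pack the sperm nucleus, rose by 0.67 to 1.62. *ProtB*, a protamine, read 10.87, 10.53 and 10.26 in mitosis and 11.91, 11.83 and 11.81 in meiosis, and *ddbt*, a telomere protein of sperm, read 9.61, 9.50 and 9.48 against 11.11, 10.90 and 10.98. Both were brighter in each meiotic array. Of 21 Mst and don juan genes of the sperm tail 17 rose and *Mst85C* fell by 2.41, with a median of 0.90 that was 0.24, with 11 genes higher, after cyclic loess between arrays. Of 5 sperm leucyl aminopeptidases 4 rose (median 0.64), but after cyclic loess the median was -0.16 and 1 rose. The array means of this list ran from 12.31 to 12.46 in mitosis and from 13.01 to 13.12 in meiosis.

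Other genes of spermatid shape split. In the nebenkern, the mitochondrial body of the spermatid, *fzo* (2.17) and *knon* (1.89) rose with 3 more of the 8 listed genes. *betaTub56D*, the general beta tubulin, read 12.26, 12.49 and 12.43 in mitosis against 9.94, 10.17 and 10.03 in meiosis, a fall of 5.08-fold (adjusted p = 4.6e-09), with all meiotic arrays below. The testis tubulin *betaTub85D* rose by 0.65, but fell by 0.12 after cyclic loess. Of 19 centriole and basal body genes 9 (47.4%) rose and 5 (26.3%) fell, against 42.4% and 40.2% of genes with a mean intensity of 9 or more. Among them *ana2*, a centriole duplication protein, rose by 1.24 and *Cep97* by 0.98. Of 20 cytokinesis genes 14 fell, with *Septin2* at -1.85, and 3 rose, with *nuf* at 1.10.

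The proteasome showed an exchange between general subunits and testis copies. None of 26 general proteasome genes rose and 24 fell (median -0.63), whereas 11 of 13 testis paralogs rose and 1 fell (median 1.22). *Prosalpha3T* read 8.16, 8.48 and 8.38 in mitosis and 10.61, 10.68 and 10.38 in meiosis, a rise of 4.65-fold (SE 0.13 on the log2 scale, adjusted p = 1.7e-08), while *Prosalpha3* read 12.28, 12.15 and 12.27 against 11.65, 11.80 and 11.73. *Prosalpha4T1* read 8.17, 8.04 and 8.29 against 10.34, 10.20 and 10.14, while *Prosalpha4* read 11.87, 11.94 and 12.02 against 10.09, 10.30 and 10.22. Both testis subunits were higher and both general ones lower in every meiotic array. The cap ATPases differed from the core. *Rpt4R* fell by 0.47 and *Rpt3R* was not called (-0.19, adjusted p = 0.075).

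The same comparison was made for 49 pairs of a general gene and a testis paralog, with 43 general genes among them. In 35 pairs the general gene was lower and the testis paralog higher, and in no pair was it the other way round. Of the general genes 41 were lower and none higher (median -1.21), and of the 49 testis paralogs 36 were higher and 7 lower (median 0.94). The count of 35 ran from 32 to 35 over the alternative settings tried, with 32 after cyclic loess. Of the general genes 14 lie on the X chromosome, and off the X 28 of 29 were lower. The pairs were listed because a testis copy is known, and some share a general gene. They were chosen with earlier results of these data known, so the counts describe these pairs only. Measured copies outside the pairs moved both ways, with *SkpE* (-1.83) and *ATPsynepsilonL* (-1.40) lower and *SkpF* (1.51) and *COX6CL* (1.56) higher.

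**Figure D2:**
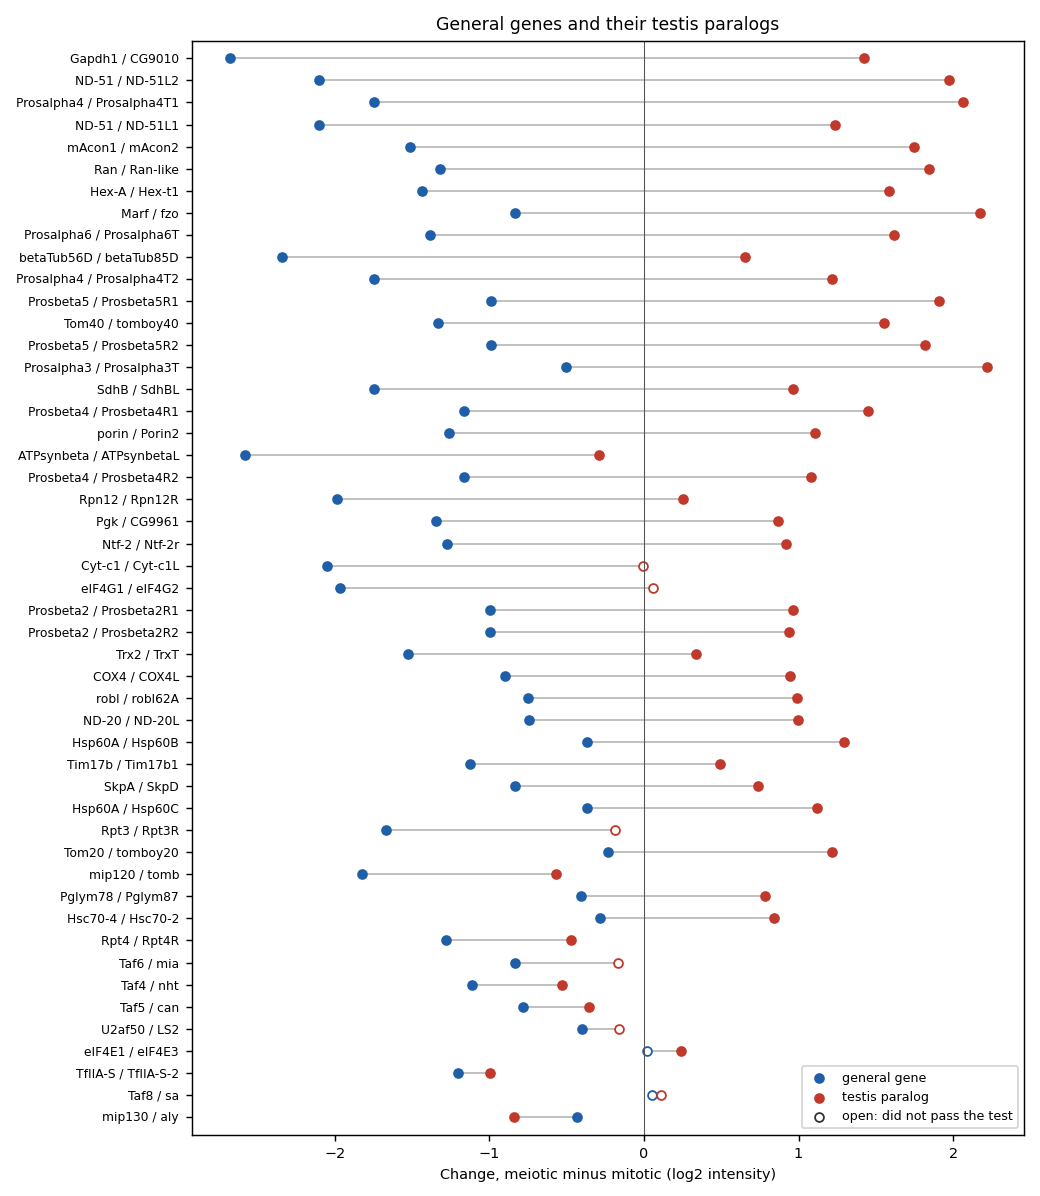
Change of the general gene (blue) and of its testis paralog (red) in the 49 pairs, meiotic minus mitotic on the log2 intensity scale, ordered by the distance between both, with open points for genes that did not pass the test. The widest gap is that of *Gapdh1* and *CG9010* at the top, and in 35 pairs a filled blue point lies left of 0 and a filled red point right of it (32 pairs after cyclic loess).

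Energy metabolism held many such pairs. *Gapdh1*, a glycolytic dehydrogenase, read 11.44, 11.54 and 11.57 in mitosis and 8.80, 8.80 and 8.91 in meiosis, and its paralog *CG9010* read 10.71, 10.46 and 10.39 against 11.96, 11.97 and 11.89. The first fell by 6.41-fold and the second rose by 2.68-fold (adjusted p = 3.7e-10 and 3.5e-08). *Hex-A*, the general hexokinase, read 8.61, 8.65 and 8.52 against 7.12, 7.20 and 7.15, while *Hex-t1*, a testis hexokinase, read 8.28, 8.08 and 8.32 against 9.92, 9.82 and 9.68. In each of these genes the regions were separate on every array.

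Over 13 glycolytic genes 7 (53.8%) rose and 4 (30.8%) fell, against 42.4% and 40.2% of genes with a mean intensity of 9 or more. The aldolase gene *Ald1* cannot be given a direction, because its brightest probe set rose by 1.39 and another fell by 2.42. In the TCA cycle 6 of 16 genes rose and 8 fell. The aconitase *mAcon1* read 10.62, 10.65 and 10.68 in mitosis against 9.18, 9.02 and 9.22 in meiosis, and *mAcon2* read 9.51, 9.04 and 9.24 against 11.11, 10.92 and 10.99. The general enzyme was thus lower and its copy higher in every meiotic array. The fumarase *Fum4* rose by 1.75, and *Scsalpha1* and *Mdh1* fell by 1.97 and 1.88.

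Of 69 genes of the respiratory chain and ATP synthase 36 fell and 19 rose (median -0.27), with 12 falls and 14 rises of 2-fold or more. *ATPsynbeta*, the catalytic subunit of the ATP synthase, read 12.17, 12.14 and 12.29 in mitosis and 9.56, 9.58 and 9.71 in meiosis, a fall of 5.97-fold (adjusted p = 5.5e-09), and its testis copy *ATPsynbetaL* also fell, by 0.29 (0.12, not called, after cyclic loess). *ND-51* of complex I read 11.37, 11.48 and 11.46 against 9.23, 9.44 and 9.33, while *ND-51L2* read 8.03, 7.98 and 8.03 against 10.17, 9.99 and 9.79. The 2 genes of complex I were apart in opposite directions on all arrays. *SdhAL* (2.01), *COX6AL2* (1.74) and *COX6CL* (1.56) were other copies that rose, whereas the copy *ATPsynepsilonL* fell (-1.40). *COX7C* had probe sets of opposite sign, 1.18 for the brightest and -2.25 for another.

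Genes of mitochondrial import moved both ways, with 11 of 22 higher and 5 lower. The list was bright, with a median intensity of 11.65. Of genes with a mean intensity of 9 or more, 42.4% rose and 40.2% fell. The median change of the list was 0.21, and 0.04 after cyclic loess, so a rise of the list as a whole was not established. *Tom40*, the pore of the outer membrane, read 11.77, 11.92 and 11.66 in mitosis against 10.41, 10.41 and 10.53 in meiosis, while *tomboy40* read 10.65, 10.52 and 10.52 against 12.15, 12.19 and 12.02. *Tim17a1* of the inner membrane read 9.57, 9.41 and 9.30 against 11.45, 11.30 and 11.29. The general pore was lower, and both copies higher, in every meiotic array. The count of lower genes in this list was 3 after centring, 9 after cyclic loess and 3 without mitotic replicate 1 or without meiotic replicate 2.

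Subunits of the vacuolar ATPase, a proton pump, divided evenly, with 15 (48.4%) higher and 15 (48.4%) lower of 31. Genes with a mean intensity of 9 or more also divided almost evenly, with 42.4% higher and 40.2% lower. *Vha55*, the general B subunit, read 9.70, 9.75 and 9.65 in mitosis and 7.79, 8.02 and 8.0 in meiosis. The 3 measured genes of the Vha36 subunit went apart, with *Vha36-1* at -1.47, *Vha36-2* at 1.78 and *Vha36-3* at 1.36. *Vha36-2* read 9.45, 8.83 and 8.82 against 10.98, 10.75 and 10.72, and *Vha16-4*, a membrane subunit, read 8.52, 8.43 and 8.53 against 10.55, 10.30 and 10.21. Arrays of the regions did not overlap in any of them.

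Most genes of nuclear transport fell. Of 40 nuclear pore and Ran cycle genes 30 fell and 5 rose (median -0.66), and 3 rose after cyclic loess. The 5 were the testis copies *Ran-like* and *Ntf-2r*, the nucleoporin *Elys* (0.57) and the importins *Pen* (0.47) and *Kap-alpha1* (0.34). *Nup153*, a protein of the nuclear basket, read 7.97, 7.96 and 7.81 in mitosis against 4.99, 5.04 and 5.02 in meiosis, a fall of 7.45-fold (adjusted p = 6.1e-10). *Ran*, the transport GTPase, read 11.89, 11.88 and 11.47 against 10.52, 10.58 and 10.18, and *Ran-like* read 9.95, 10.02 and 9.87 against 11.75, 11.94 and 11.69. *Ran* and *Nup153* were thus low, and *Ran-like* high, in all 3 meiotic arrays. *Ntf-2r* rose by 0.92, and *Ntf-2*, the transport factor it copies, fell by 1.27.

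**Figure D3:**
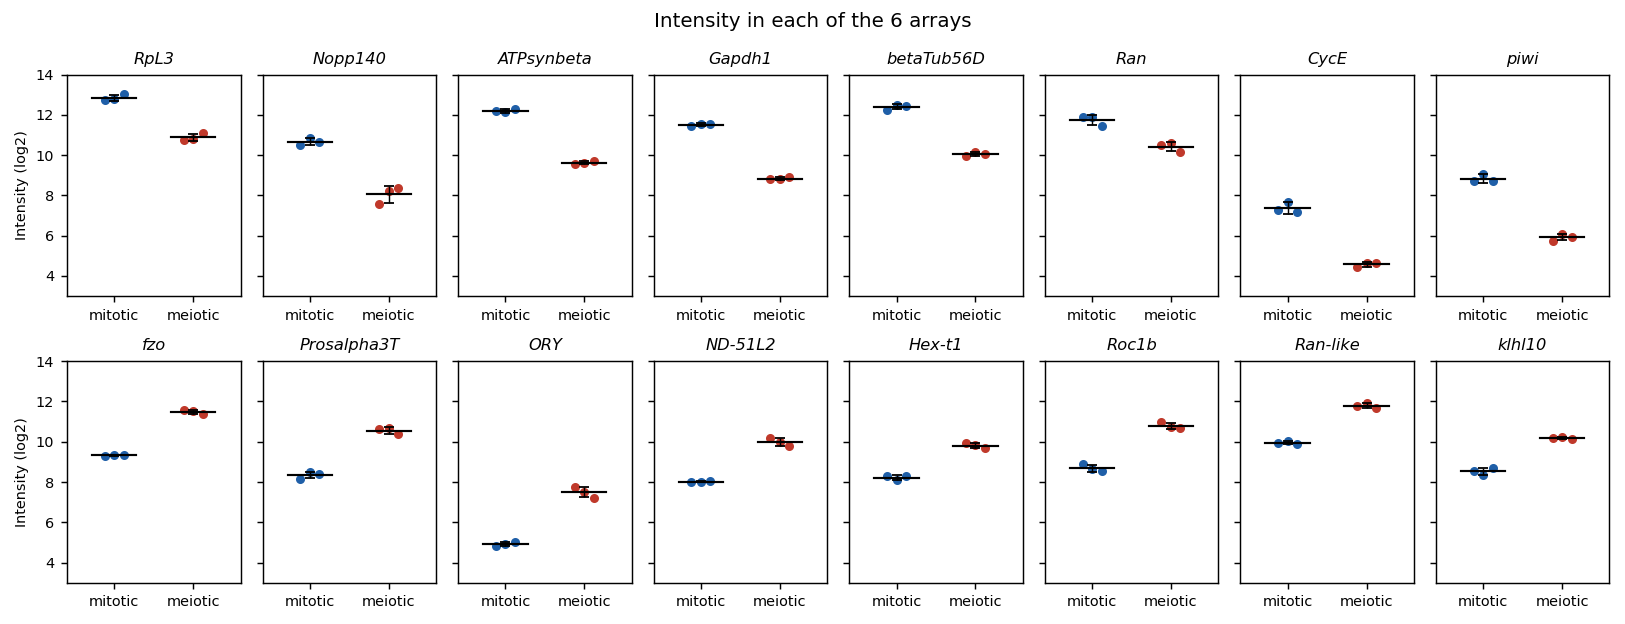
Log2 intensity of 16 genes in the 3 mitotic (blue) and 3 meiotic (red) arrays, with the mean as a black line and the SD of 3 arrays as error bars. The first 8 panels are genes that fell, such as *ATPsynbeta* (12.17, 12.14 and 12.29 against 9.56, 9.58 and 9.71), and the others are genes that rose. In each panel the arrays of the 2 regions are apart.

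Ubiquitin ligases and caspases, which act when spermatids shed their cytoplasm, were mixed. Of 24 Skp, Cullin and Roc genes 7 (29.2%) rose and 11 (45.8%) fell. These shares were near the 29.5% of all genes that rose and the 40.2% of genes with a mean intensity of 9 or more that fell. *Roc1b*, a testis-enriched RING subunit, read 8.88, 8.64 and 8.53 in mitosis and 10.98, 10.71 and 10.69 in meiosis, a rise of 4.32-fold (adjusted p = 6.7e-09), whereas *Roc1a* read 6.89, 7.24 and 7.12 against 5.56, 5.63 and 5.68. The 2 RING genes went opposite ways on all arrays. *SkpF* rose by 1.51 and *SkpE* fell by 1.83. *klhl10*, an adaptor of the ligase that activates caspases in spermatids, read 8.55, 8.35 and 8.72 against 10.21, 10.24 and 10.13, and *ntc*, an F-box protein of the same process, rose by 1.26. The effector caspase *Dcp-1* fell by 1.93.

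Some chaperones also divided between general and testis forms, and redox genes moved both ways. *Hsp60B*, *Hsp60C* and *Hsp60D* rose by 1.29, 1.12 and 1.4 while *Hsp60A*, the mitochondrial chaperonin of most tissues, fell by 0.37. *Hsc70-1* rose by 1.45 and *Hsc70-4* fell by 0.28 (0.24, not called, without mitotic replicate 3). Of 15 thioredoxin and glutathione genes 6 rose and 9 fell, with *Prx1* at 1.54, *Gclc*, a subunit of the enzyme that starts glutathione synthesis, at 1.17, and *Trx2* at -1.53. The testis thioredoxin *TrxT* rose by 0.34, but fell by 0.48 after cyclic loess. The secretory pathway fell, with 20 of 23 COPI, COPII and Sec61 genes lower and none higher. Of 22 autophagy genes 15 fell and 2 rose, *Atg16* (0.79) and *Atg8b* (1.27).

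In 7 of the 49 pairs both partners fell. They were *Taf4* and *nht*, *Taf5* and *can*, *mip130* and *aly*, *mip120* and *tomb*, *Rpt4* and *Rpt4R*, *TfIIA-S* and *TfIIA-S-2*, and *ATPsynbeta* and *ATPsynbetaL*. In the fourth of these *mip120* fell by 1.82 and *tomb* by 0.57, while in the third *aly* (-0.84) fell further than *mip130* (-0.43). The general transcription factor *TfIIA-S* fell by 1.21 and its testis copy by 0.99. In 5 pairs the general gene fell and the testis copy was not called, as with *eIF4G1* (-1.97) and *eIF4G2* (0.06). The cap-binding protein *eIF4E1* (0.02, adjusted p = 0.861) was not called beside a small rise of *eIF4E3* (0.24), and after cyclic loess their changes were -0.44 and -0.42. The rise of *eIF4E3* passed the test without mitotic replicate 3 but lost it when any of the other 5 arrays was left out (0.22 to 0.26).

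Many genes of the signals sent and received at the niche were lower. Of 15 BMP genes 11 fell and none rose (median -0.89), with the receptors *tkv* (-1.79) and *put* (-1.31) and the ligand *dpp* (-1.25) lowest. *tkv* read 8.71, 8.80 and 8.75 in mitosis and 7.0, 6.93 and 6.96 in meiosis, without overlap. Of 14 EGF receptor and Ras genes 11 fell and none rose, with *S* (Star), which traffics the ligand, at -2.26 and the adaptor *drk* at -1.96. Of 10 JAK-STAT genes 5 fell, 4 were not called and *ken* rose by 0.63, with a median of -0.24. *Stat92E*, the transcription factor of this pathway, fell by 1.6 and *zfh1*, its target in cyst stem cells, by 1.76. Of 13 hedgehog and Notch genes 8 fell and 1 rose, with *fng*, which modifies Notch, at -2.33.

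Cell contact genes fell too. *zpg*, the germline innexin of gap junctions, read 9.25, 9.54 and 9.51 in mitosis and 6.53, 6.5 and 6.60 in meiosis, and *Inx2*, its partner in cyst cells, read 8.20, 8.43 and 8.31 against 5.23, 5.65 and 5.69. *Inx5* read 9.48, 9.23 and 9.36 against 10.03, 10.16 and 10.02. The first pair was low and the last gene high in every meiotic array. Of 27 septate junction and polarity genes 22 fell and 2 rose (median -0.76), with *nrv1*, a sodium pump subunit, at -2.66 and *l(2)gl*, a polarity regulator, at -2.07. Of 17 actin genes and regulators 12 fell and 3 rose.

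Somatic markers moved with these falls. Of 24 sarcomere genes that mark the muscle sheath 17 fell and 3 rose (median -0.66), and their mean intensity ran from 6.96 to 7.24 in the mitotic arrays and from 6.31 to 6.46 in the meiotic arrays. *Mlc1*, a myosin light chain, read 8.50, 8.70 and 8.06 against 6.04, 5.89 and 6.06. Of 15 basement membrane genes 9 fell and 2 rose, with means of 7.55 to 7.59 against 6.88 to 6.90, and *SPARC* fell by 2.71 and *trol* by 2.26. In both lists no meiotic mean reached a mitotic one. Of 15 hub and cyst cell genes 8 fell and 3 rose (means 7.31 to 7.43 against 6.93 to 6.95), with *Amph* at -3.04, *zfh1* at -1.76 and *so*, needed in cyst cells, at 1.41. Of 16 pigment cell genes 9 fell and 3 rose. *Act87E*, *Msp300* and *sls* were the sarcomere genes that rose, by 1.55, 1.51 and 0.94. The loss of the sheath from the meiotic samples and a change within germ cells cannot be told apart for genes that both express, and the part of somatic cells in the falls of the general machinery was not tested.

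Most markers of other organs were not called, at shares of rises no higher than the 29.5% of all genes. Of 26 accessory gland and ejaculatory duct genes 5 rose and 2 fell, and 19 were not called, while 3 rose after cyclic loess and also without mitotic replicate 1 or without meiotic replicate 2. *Ance* rose by 1.56. Their mean intensity ran from 5.25 to 5.35 in mitosis and from 5.32 to 5.43 in meiosis. Of 18 fat body and haemocyte genes 4 rose and 3 fell, with *apolpp* at 1.12, *crq* at -1.27 and *Yp3* at -1.14. Of 17 synaptic genes 5 (29.4%) rose and 3 fell, with *brp* at 1.64. The regions had been labelled by the dissection. Of the lists that mark them, the spermatogonial regulators and the niche signals were more often higher in the mitotic samples. The genes of the divisions were more often higher than lower in the meiotic samples. Their share of rises was 53.8%, against 42.4% of genes with a mean intensity of 9 or more. The arrest complex and the testis TAFs, which act in spermatocytes, did not mark the meiotic samples. Cup and comet genes are transcribed after meiosis according to a study the paper cites. Of 17 such genes 16 (94.1%) were higher in the meiotic samples and none lower (median 1.09). The part of early spermatids in the rises of sperm genes was not tested.

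Genes with no name beyond a CG number took a large share of the rises. Of 5209 genes with a CG number only, 2002 (38.4%) rose and 1144 (22%) fell, against 1500 (22.5%) and 2834 (42.4%) of 6679 named genes. Their median changes were 0.14 and -0.08, at median intensities of 7.53 and 7.86. Of 94 noncoding RNA genes 35 (37.2%) rose and 13 (13.8%) fell. Of the 4720 probe sets without a symbol 587 (12.4%) rose and 496 (10.5%) fell, at a median intensity of 5.18.

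Families expressed in sense organs and cuticle rose in shares below or near that of all genes. Of 166 chemoreceptor genes 32 (19.3%) rose and 1 fell, against 29.5% of all genes that rose, with a median change of 0.14, and the count of rises was 66 when arrays were centred. Most of these genes were dim, with list means of 5.11 to 5.13 in mitosis and 5.30 to 5.32 in meiosis. *Gr32a* (2.30), *Gr61a* (1.46), *Ir41a* (1.21) and *Gr64f* (1.13) rose by 2-fold or more. Of 75 cuticle and chorion genes 26 (34.7%, near the share of all genes) rose and none fell, and 5 of them, led by *Cpr51A* (1.42) and *Cp15* (1.34), rose by 2-fold or more.

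**Figure D4:**
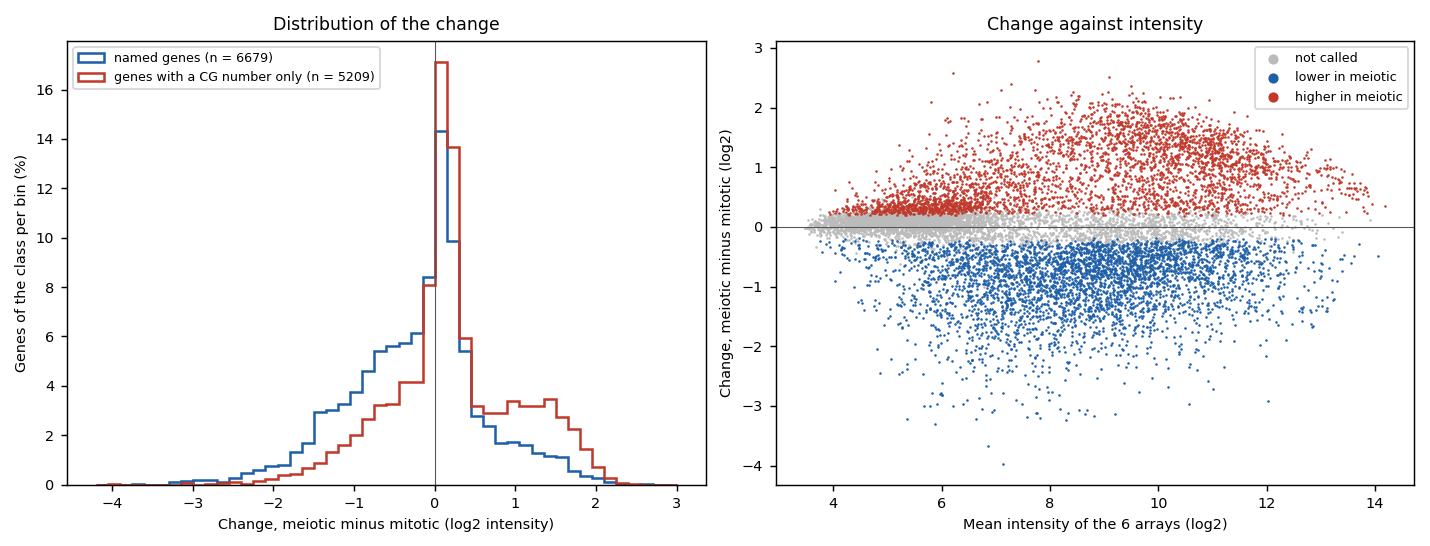
Left, distribution of the change (meiotic minus mitotic, log2 intensity) in the 5209 genes with a CG number only (red) and the 6679 named genes (blue), as a percent of each class per bin. Right, change of each gene against its mean log2 intensity over the 6 arrays, coloured by the call. Falls were called in 42.4% of the named genes and in 22% of the genes with a CG number only.

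Called genes also differed in structure and place. The median length of a gene was 1933 bp for those that rose, 2723 bp for those that fell and 2161 bp for those not called, and among genes of mean intensity 9 or more it was 1600, 2108 and 2309 bp. A single annotated transcript was present in 52.4% of rising and 41.7% of falling genes, and in 54.4% and 43.9% of the bright ones. On chromosome 4, 9 of 65 genes (13.8%) rose and 33 (50.8%) fell, against 29.5% and 33.3% of all genes. The median intensity was 6.48 on chromosome 4 and 7.70 over all genes.

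Neighbouring genes were at times called the same way. The longest run was 16 measured genes in a row on chromosome arm 2L that all rose, by 0.40 to 2.36. It began with *lncRNA:CR43762* and *CG11629* and held *tio*, a zinc finger gene, and *ttm3*, a testis copy of a mitochondrial import gene, before it ended with *CG10834* and *CG6675*. The longest run of falls was 12 genes on 3L that included *ATPsynbetaL*, *IleRS-m* and *Taf4*. Neighbours can overlap, and a run depends on which genes have a named probe set.

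Several probe sets for a gene mostly did not contradict each other. Of 1094 genes with several probe sets, 239 had all of them called in the same direction and 55 had probe sets called in opposite directions. In 4 of these, *Ald1*, *Alh*, *COX7C* and *RpS29*, both changes were of 2-fold or more. *Alh*, a chromatin protein, had a probe set that read 7.80, 8.02 and 7.93 in mitosis against 6.28, 6.48 and 6.58 in meiosis, and another that read 7.63, 7.42 and 7.49 against 8.76, 8.56 and 8.45. The regions were separate on both, in opposite directions.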

How the data were processed

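RNA of 9 testis samples (3 mitotic, 3 meiotic, 3 post-meiotic) was hybridized to 9 arrays. The deposited values are log2 intensities that the authors made by RMA background correction and quantile normalization, without pooling replicates; the software version is not given in the sources used here. They were used without a further step. The precision is limited by the number of arrays. Of 18952 probe sets, 183 controls were left out. In the array annotation 13647 probe sets had 1 symbol, 402 several and 4720 none, and symbols were updated for 13544 through RefSeq gene identifiers. Probe sets with several symbols stayed unnamed.

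The 3 regions were fitted with limma 3.58.1 (lmFit and eBayes, R 4.3.3) in 1 model over 9 arrays, with the contrast meiotic minus mitotic and Benjamini-Hochberg adjustment over all 18769 probe sets. Genes were represented by the brightest probe set over 6 arrays. The members, the 68 gene lists, the pairs (49 of 59 measured) and the naming rule were chosen with earlier results of these data known, and lists are described by counts and medians without a test. The rule names the 12 largest rises and 12 largest falls with no overlap of arrays, up to 4 called members of each list with the largest change, all members of lists of 8 or fewer, and both partners of each pair. Any other gene in the text was picked with its values known. List entries that matched an older synonym of another gene were left out, as were Cp190 and Trap1, which belong to other functions, after their values were seen.

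On 20 simulated data sets of all probe sets with the spread of this comparison, limma called 59.6% of changes of 0.5, 97.1% of changes of 1 and 100% of changes of 2 on the log2 scale, while 5.12% of its calls fell on probe sets simulated without a change. Alternatives were a filter at a mean log2 intensity of 6, centred arrays, cyclic loess, the 6 arrays alone, no shared probe sets, a replicate block, a 2-fold minimum, any probe set of a gene, and leaving out each array. Tables were handled with pandas 2.3.3 and numpy 2.4.6 in Python 3.11.15 and figures drawn with matplotlib 3.10.9.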

Additional observations from a re-analysis of the deposited data

How the results depend on the processing

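The count of probe sets ran from 3954 to 4228 higher and from 4651 to 4737 lower when single arrays were left out. It was 3604 and 4464 with the filter on dim probe sets, 6014 and 4596 with centred arrays, 4267 and 4743 after cyclic loess, 5445 and 5264 with the 6 arrays alone, and 3738 and 3513 without shared probe sets. A 2-fold minimum left 1646 and 1887. Of 79 list counts, 72 stayed within 1.5 times under every alternative run on them. After cyclic loess, 9 kinetochore genes were lower (14 before), 9 mitochondrial import genes lower (5 before), and 11 Mst genes (17 before), 1 leucyl aminopeptidase (4 before), 3 accessory gland genes (5 before) and 3 nuclear pore and Ran genes (5 before) higher. With centred arrays, 3 import genes were lower and 66 chemoreceptors (32 before) higher. Without single arrays the import genes lower ran from 3 to 5 and the accessory gland genes higher from 3 to 5; both were 3 without mitotic replicate 1 and without meiotic replicate 2. Of 363 named genes 340 kept direction and call under every alternative, and 9 turned, all of them after cyclic loess: S-Lap2 to -0.081, S-Lap7 to -0.16, S-Lap8 to -0.23, grsm to -0.31, TrxT to -0.48, betaTub85D to -0.12, eIF4E1 to -0.44, eIF4E3 to -0.42 and eIF4G2 to -0.59. The cause was not tested. The call was lost under some alternative for 9 genes, among them Tom20 (-0.17 with centred arrays, -0.21 without mitotic replicate 1 or meiotic replicate 2) and Rpn12R (0.073 after cyclic loess, 0.22 without mitotic replicate 2). Replicates of the same number deviated from their group means with correlations of 0.36, 0.09 and 0.06 across probe sets, so the numbers were not taken to pair samples, and a replicate block gave 4609 higher and 4961 lower.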
